A study of Mus musculus with 15 samples.

Results

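The genes described here build the contractile machinery of vascular smooth muscle and the actin cytoskeleton that carries its force. A list of 35 genes was chosen by function, with earlier results of these data known. It was matched by symbol or earlier symbol to the array's probe sets that carry exactly 1 gene symbol. Of the 35 genes 34 were measured, among 22180 genes in all. Rbpms2, an RNA-binding protein, lies only on probe sets that name several genes and was not analysed here. Of the 34 members, 32 rest on 1 probe set and Smtn and Lpp on the mean of 2. They are taken below by role: 9 genes of the thin filament and its regulators, 8 of myosin and the control of its light chain, 9 of dense bodies, Z-disc and LIM proteins, 5 of adhesion plaques with filamin, 2 intermediate filament genes and 1 regulator of the muscle programme.

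The samples were carotid arteries of female C57Bl/6J mice aged 21 to 22 weeks, either wildtype or labelled Has3 deficient. Has3 is a hyaluronan synthase, an enzyme that makes a large sugar polymer of the extracellular matrix. The left common carotid artery was tied off to provoke a neointima, and tied arteries and untied control arteries were taken 5 days later, kept in RNAlater and freed of adherent wound tissue. There were 4 wildtype non-ligated arrays, 4 wildtype ligated arrays, 4 Has3-deficient non-ligated arrays and 3 Has3-deficient ligated arrays (numbered 3, 5 and 6), each made from 100 ng of total RNA. The labels do not say how Has3 was removed, nor whether the samples came from separate mice, so every p-value measures the spread between these samples, which may be technical.

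Smooth muscle contracts when calcium, through calmodulin, switches on myosin light chain kinase. The kinase phosphorylates the regulatory light chain, and myosin then pulls on thin filaments of actin and tropomyosin that are anchored in dense bodies and in adhesion plaques at the membrane. Many of these genes share a control: serum response factor binds a short element, the CArG box, and its partner myocardin raises transcription from it. In an injured artery smooth muscle cells are known to leave the contractile state, to divide and to build a neointima, and a loss of contractile transcripts is a usual mark of that switch.

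Because the CArG box is the element that links these genes, promoters were searched for it. RefSeq promoter windows (mouse build GRCm38.p6, 250 bases before to 50 after a gene's start) were given for 29 of the 35 listed genes; Myh11, Tagln, Actg2, Myocd, Nexn and Tgfb1i1 were not among them. The box is CC, then 6 bases that are A or T, then GG, and a match reads as the same kind of match on the other strand, so both strands are covered. An exact box stood in the window of 5 of the 29 genes, which is 17.2%, against 1.81% of the 27025 genes of the same table, and 1.76% of its 17491 protein-coding genes. With 1 mismatch allowed among the 6 middle bases it stood in 10 of 29, or 34.5%, against 11.3% of all genes. A match is a description of the letters, and its absence says only that they are not in this window.

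The exact boxes are shown because the element is the one the genes are known to share: each line gives the box in capitals with its flanks, 5′ to 3′ on the gene's strand. The stretches are chr2:156775278-156775337 (plus strand) for Myl9, chr14:20929148-20929205 (plus) for Vcl, chrX:56779556-56779615 (plus) for Fhl1, chr14:34588682-34588741 (minus) for Ldb3 and chr10:128493025-128493084 (minus) for Myl6, all upstream of a start site.
Myl9: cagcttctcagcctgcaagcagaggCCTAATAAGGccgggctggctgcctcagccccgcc
Vcl: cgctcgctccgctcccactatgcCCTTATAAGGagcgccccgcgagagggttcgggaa
Fhl1: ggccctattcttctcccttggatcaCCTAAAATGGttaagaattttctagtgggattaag
Ldb3: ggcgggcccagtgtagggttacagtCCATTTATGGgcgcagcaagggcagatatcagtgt
Myl6: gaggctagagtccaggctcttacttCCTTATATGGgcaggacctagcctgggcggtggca

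The first base of the box lay 161 bases before the start in Myl9, 227 in Vcl, 102 in Fhl1, 50 in Myl6, and 35 or 109 in Ldb3 by which of its annotated starts is used. After ligation in wildtype arteries, Myl9 changed by -0.89 log2 units, Vcl by -0.65, Fhl1 by -0.88 and Ldb3 by -1.26, all passing the test defined below, while Myl6 changed by -0.20 and did not pass.

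Acta2, the smooth muscle alpha actin gene and the usual marker of the tissue, had no exact box in its window but 2 boxes with 1 mismatch, from 84 to 75 and from 34 to 25 bases before the start. They are in capitals in the 250 bases before its start, chr19:34255374-34255623 on the minus strand.
Acta2: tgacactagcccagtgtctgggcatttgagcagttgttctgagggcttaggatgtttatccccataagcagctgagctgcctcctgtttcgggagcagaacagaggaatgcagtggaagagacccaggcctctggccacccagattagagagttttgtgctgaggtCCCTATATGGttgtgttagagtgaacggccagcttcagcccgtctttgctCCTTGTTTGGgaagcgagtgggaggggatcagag

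The deposited values are log2 values centred on each probe set's median over the 15 arrays, so 0 is the middle array for that gene, a difference of 1 is 2-fold, and levels of different genes cannot be compared. A rough trace of level remains in how finely the stored numbers are spaced: 28 of the 34 members (82.4%) had all their probe sets in the highest range before centring, against 16.1% of all genes. The Has3 probe set ran from -0.08 to 0.22 in the wildtype non-ligated arrays and from -0.08 to 0.41 in the Has3-deficient non-ligated ones. It ran from -0.08 to 0.58 in the wildtype ligated and from -0.23 to 0.10 in the Has3-deficient ligated arrays. The ranges overlap, so this probe set does not check the genotype labels, its place relative to the altered part of the gene is not given in the sources used here, and "Has3-deficient" follows the labels. Has3-deficient non-ligated array 3 stood apart: its mean over 12 genes of neurons and chromaffin cells was 3.95, against -0.33 to 2.13 in the other arrays. It was also the lowest of its group in 31 of the 34 members. Its median member value of 0.00 follows from the centring and is no further sign. Where all 7 ligated arrays of a probe set lie below all 8 non-ligated ones, the lowest non-ligated array is the middle one and reads 0. The comparisons whose groups include Has3-deficient non-ligated array 3 are given with and without it.

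Ligation lowered the contractile programme of the wildtype artery almost throughout. A gene passed when the limma model fitted across all genes gave a Benjamini-Hochberg adjusted p under 0.05. By that measure 31 of the 34 members fell, where 14.6% of all genes were called lower, and none rose (13.2% of all genes were called higher). The median change of the members was -0.88 log2 units, against 0.0055 over all genes, and the single changes ran from -1.89 to -0.10. A fall of at least 1 log2 unit (2-fold) was seen in 13 members, and in 1.76% of all genes. In 32 members the 4 ligated arrays lay below all 4 non-ligated ones, which held for 16% of all genes. In whole arteries the RNA of all cells is mixed. Fewer smooth muscle cells, more RNA from other cells in the 100 ng, and less RNA per smooth muscle cell cannot be told apart.

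**Figure D1:**
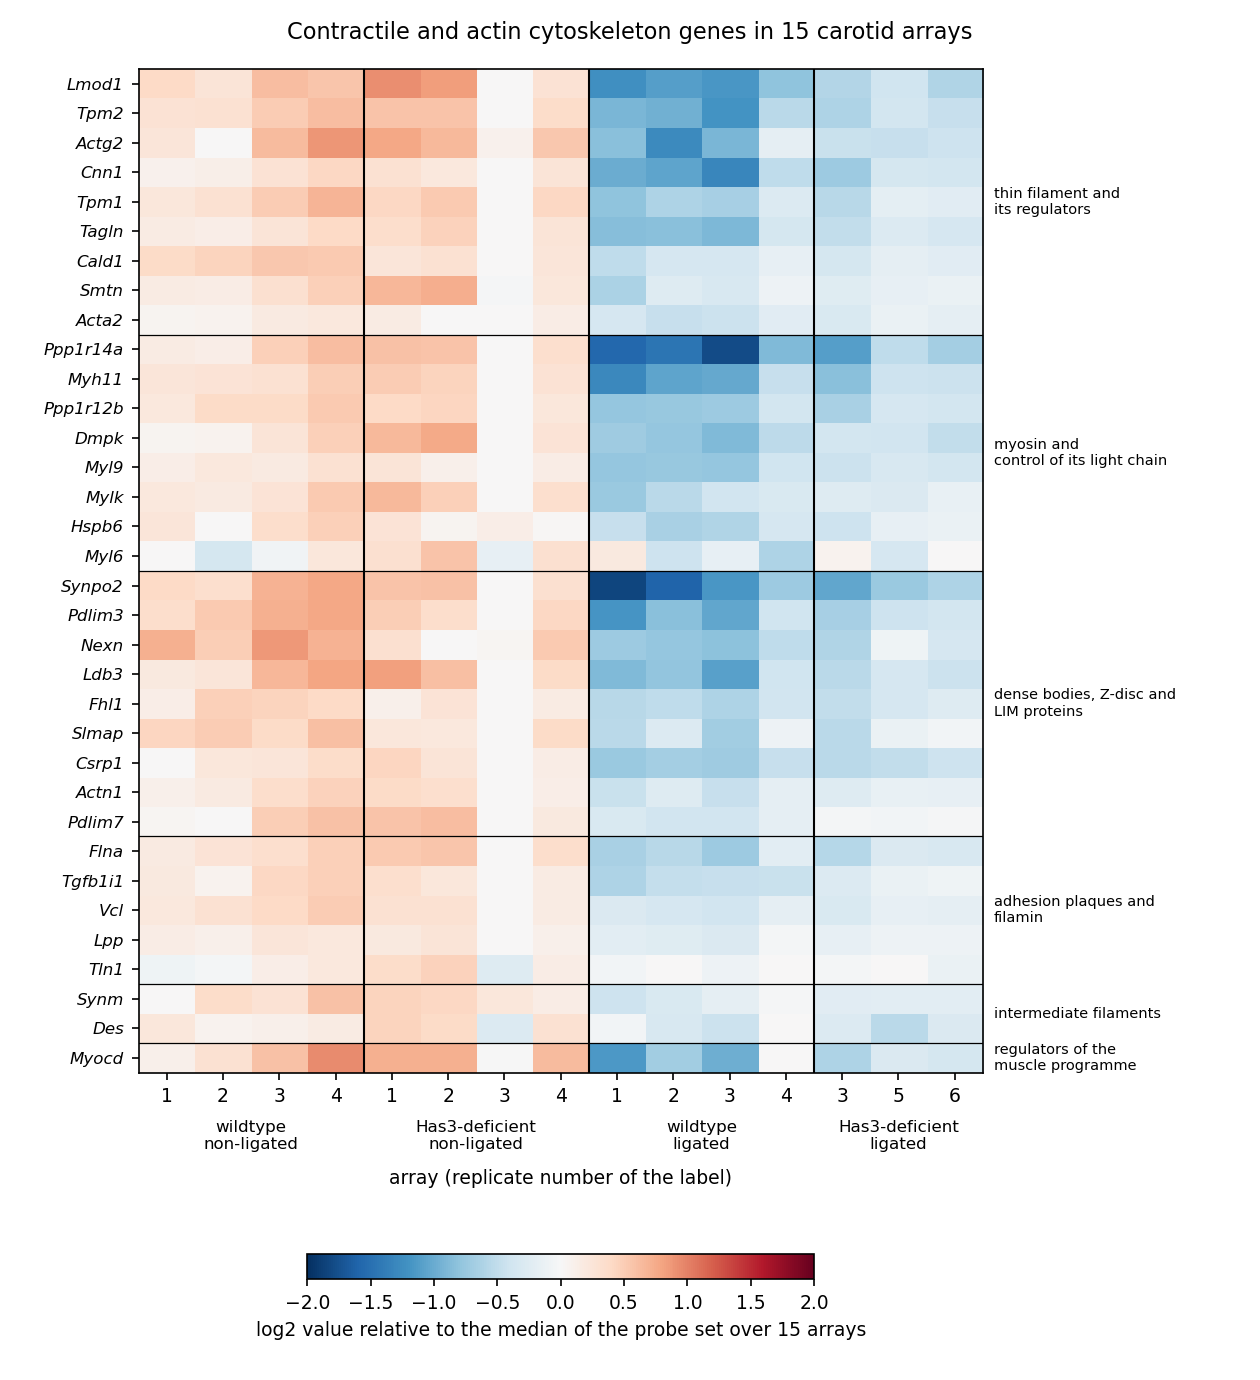
Log2 values of the 34 members (rows, grouped by role) in the 15 arrays (columns, by group and replicate number), each relative to the median of its probe set, with red above and blue below 0. Ligated arrays are blue in nearly every row, and wildtype ligated array 4 is paler than wildtype ligated arrays 1 to 3. Has3-deficient non-ligated array 3 lies at or near 0 for most members. The centring puts the lowest non-ligated array there when all ligated arrays lie below it.

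All 9 thin filament genes fell in wildtype arteries, by a median of -1.02. Lmod1, leiomodin, which starts new actin filaments in smooth muscle, changed most of them. In array order, the wildtype non-ligated arteries read 0.39, 0.27, 0.61 and 0.56 for Lmod1 and the wildtype ligated ones -1.23, -1.10, -1.16 and -0.80. Its groups were thus more than 1 log2 unit apart at their nearest arrays, and the change was -1.53 ± 0.17 (± standard error of the model), or 2.89-fold lower, with an adjusted p of 1.35e-05. In the Has3-deficient arteries Lmod1 read 0.93, 0.83, 0.00 and 0.30 without ligation and -0.59, -0.39 and -0.60 with it. That is a change of -1.04 ± 0.19 (2.05-fold lower).

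Acta2 changed least of the thin filament genes. It read 0.06, 0.08, 0.17 and 0.21 in the wildtype non-ligated arrays and -0.33, -0.47, -0.43 and -0.23 in the ligated ones. The fall of -0.50 ± 0.07 (1.41-fold) was small, yet the arrays did not overlap. In Has3-deficient arteries Acta2 read 0.16, 0.00, 0.00 and 0.15 without and -0.30, -0.13 and -0.18 with ligation, a change of -0.28 ± 0.07. Without Has3-deficient ligated array 3 that change was -0.23 and no longer passed (adjusted p = 0.0832).

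Cnn1, calponin, an actin-binding brake on myosin's motor, read 0.09, 0.12, 0.29 and 0.41 in wildtype non-ligated arrays against -0.99, -1.06, -1.30 and -0.50 after ligation. It fell by 1.19 ± 0.15 log2 units in wildtype (-1.19, 2.28-fold lower) and changed by -0.68 ± 0.16 in Has3-deficient arteries. Tagln, transgelin, an actin-binding protein of differentiated smooth muscle, read 0.16, 0.13, 0.26 and 0.40 and then -0.85, -0.83, -0.90 and -0.36. In both genes wildtype ligated array 4 stood above the other ligated wildtype arrays and still below every non-ligated one. Tagln changed by -0.97 ± 0.12 in wildtype and by -0.63 ± 0.13 in Has3-deficient arteries.

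The tropomyosins, which wind along actin and set the access of myosin, fell by -1.33 (Tpm2) and -1.02 (Tpm1) in wildtype arteries. Actg2, the gamma actin of smooth muscle, changed by -1.24 and Cald1, caldesmon, an inhibitor of the actin-myosin interaction, by -0.80. For Smtn, smoothelin, the mean of its 2 probe sets changed by -0.61, but the probe sets differed, at -0.35 and -0.87, and after quantile normalization Smtn did not pass (adjusted p = 0.0653). In Has3-deficient arteries these genes changed by -0.86 for Tpm2, -0.66 for Tpm1, -0.95 for Actg2, -0.45 for Cald1 and -0.58 for Smtn, and all 9 thin filament genes passed there too.

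Of the 8 genes of myosin and its light chain control, 7 fell in wildtype arteries. Myh11, the smooth muscle myosin heavy chain, read 0.24, 0.27, 0.31 and 0.49 in non-ligated and -1.29, -1.06, -1.02 and -0.46 in ligated wildtype arrays. Its change was -1.29 ± 0.16, or 2.44-fold lower (adjusted p = 3.07e-05). In Has3-deficient arteries Myh11 read 0.50, 0.44, 0.00 and 0.28 and then -0.83, -0.41 and -0.43, a change of -0.87 ± 0.17. The Myh11 arrays of the ligated and non-ligated groups overlapped in neither genotype.

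Ppp1r14a, which encodes CPI-17, the protein that blocks myosin phosphatase and so keeps the light chain phosphorylated, fell most of this role. It read 0.17, 0.13, 0.48 and 0.62 in wildtype non-ligated arrays and -1.57, -1.47, -1.80 and -0.89 after ligation. The change of -1.78 ± 0.20 (3.43-fold lower) was the 23rd deepest of the 22180 genes. In Has3-deficient arteries the gene read 0.59, 0.58, 0.00 and 0.34 and then -1.11, -0.51 and -0.68, a change of -1.14 ± 0.21.

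Both sides of light chain phosphorylation fell together. Mylk, the kinase, changed by -0.78 in wildtype and -0.59 in Has3-deficient arteries, and Ppp1r12b, a targeting subunit of myosin phosphatase, by -1.03 and -0.72. Myl9, the regulatory light chain itself, changed by -0.89 and -0.50. Dmpk, the kinase altered in myotonic dystrophy, changed by -0.94 and -0.84, and Hspb6, a small heat shock protein of relaxing muscle, by -0.78 and -0.36.

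Myl6, the essential light chain that smooth and non-muscle myosin share, was the exception. It read 0.00, -0.35, -0.06 and 0.23 in wildtype non-ligated arrays and 0.20, -0.42, -0.17 and -0.61 in ligated ones. The groups overlapped widely, and the change of -0.20 ± 0.19 did not pass (adjusted p = 0.50). In Has3-deficient arteries it was -0.35 ± 0.20, which did not pass either (adjusted p = 0.28).

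All 9 genes of dense bodies, Z-disc and LIM proteins fell in wildtype arteries. Synpo2, synaptopodin 2, an actin-bundling protein, had the deepest fall of all members. It read 0.40, 0.34, 0.70 and 0.77 in wildtype non-ligated arrays and -1.83, -1.60, -1.17 and -0.73 in ligated ones. The change of -1.89 ± 0.21 (3.70-fold lower) was the 8th deepest of all genes. In Has3-deficient arteries Synpo2 read 0.58, 0.59, 0.00 and 0.32 and then -1.05, -0.75 and -0.61, a change of -1.18 ± 0.23, which ranked 93rd there.

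Pdlim7, a scaffold with a PDZ and LIM domains, changed least of this role. It read 0.04, 0.00, 0.49 and 0.58 in wildtype non-ligated arrays and -0.30, -0.38, -0.38 and -0.18 in ligated ones, a fall of -0.59 ± 0.15. In Has3-deficient arteries it read 0.58, 0.61, 0.01 and 0.19 and then -0.04, -0.05 and -0.03. The arrays did not overlap, but the change of -0.39 ± 0.16 did not pass (adjusted p = 0.118). It passed when Has3-deficient non-ligated array 3 was left out (-0.50, adjusted p = 0.0320).

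The related PDZ-LIM genes Pdlim3 and Ldb3 changed by -1.45 and -1.26 in wildtype and by -0.80 and -0.88 in Has3-deficient arteries. Nexn, nexilin, an actin-binding Z-disc protein, changed by -1.40 and -0.57. Actn1, alpha-actinin, which crosslinks the filaments at dense bodies, changed less, by -0.61 and -0.40. The LIM proteins Csrp1 and Fhl1 lay between, at -0.86 and -0.69 for Csrp1 and -0.88 and -0.50 for Fhl1, and Slmap, a membrane-associated protein of muscle, changed by -0.87 and -0.45.

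Adhesion plaque genes fell less than the thin filament genes, with a median of -0.65 in wildtype and -0.35 in Has3-deficient arteries. That gap between roles was not tested. Flna, filamin A, which crosslinks actin and ties it to integrins, changed most. It read 0.17, 0.27, 0.33 and 0.48 in wildtype non-ligated arrays and -0.64, -0.56, -0.73 and -0.21 in ligated ones, a change of -0.85 ± 0.13. In Has3-deficient arteries Flna read 0.53, 0.56, 0.00 and 0.36 and then -0.57, -0.30 and -0.31, a change of -0.75 ± 0.14. Vcl, vinculin, changed by -0.65 and -0.41, and Tgfb1i1, the adhesion protein Hic-5, by -0.79 and -0.35.

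Tln1, talin 1, the link from integrins to actin in many cell types, moved little in wildtype arteries. It read -0.08, -0.03, 0.13 and 0.21 without and -0.05, 0.00, -0.11 and 0.00 with ligation. The arrays overlapped, and the change of -0.10 ± 0.12 did not pass (adjusted p = 0.65). In Has3-deficient arteries the change of -0.24 ± 0.13 did not pass either (adjusted p = 0.27), but it did without Has3-deficient non-ligated array 3, the lowest of its group at -0.25 (-0.38, adjusted p = 0.00852). Lpp, a zyxin relative, changed by -0.37 and -0.26 as the mean of 2 probe sets that disagreed, at -0.76 and 0.01 in wildtype arteries.

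Of the 2 intermediate filament genes 1 passed in wildtype arteries and both in Has3-deficient ones. Des, desmin, read 0.22, 0.07, 0.10 and 0.17 in wildtype non-ligated arrays and -0.06, -0.32, -0.43 and 0.00 in ligated ones. These did not overlap, but the change of -0.34 ± 0.14 missed the threshold (adjusted p = 0.0912). In Has3-deficient arteries Des read 0.45, 0.39, -0.27 and 0.31 and then -0.28, -0.55 and -0.28, a change of -0.59 ± 0.15 (adjusted p = 0.0145), and the difference between the genotypes' responses, -0.25 ± 0.21, did not pass (adjusted p = 0.78). Synm, synemin, which joins desmin filaments to dense bodies, changed by -0.54 ± 0.11 and -0.52 ± 0.12 and passed in both.

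Myocd, myocardin, the partner of serum response factor, fell as well. It read 0.11, 0.31, 0.58 and 0.95 in wildtype non-ligated arrays and -1.15, -0.70, -0.98 and 0.00 in ligated ones. The ligated arrays were spread over more than 1 log2 unit, with array 4 close to the lowest non-ligated array. The change was -1.20 ± 0.24 (2.29-fold lower, adjusted p = 0.00187). In Has3-deficient arteries Myocd read 0.72, 0.71, -0.0038 and 0.63 and then -0.62, -0.29 and -0.36, a change of -0.93 ± 0.26 (adjusted p = 0.0238).

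**Figure D2:**
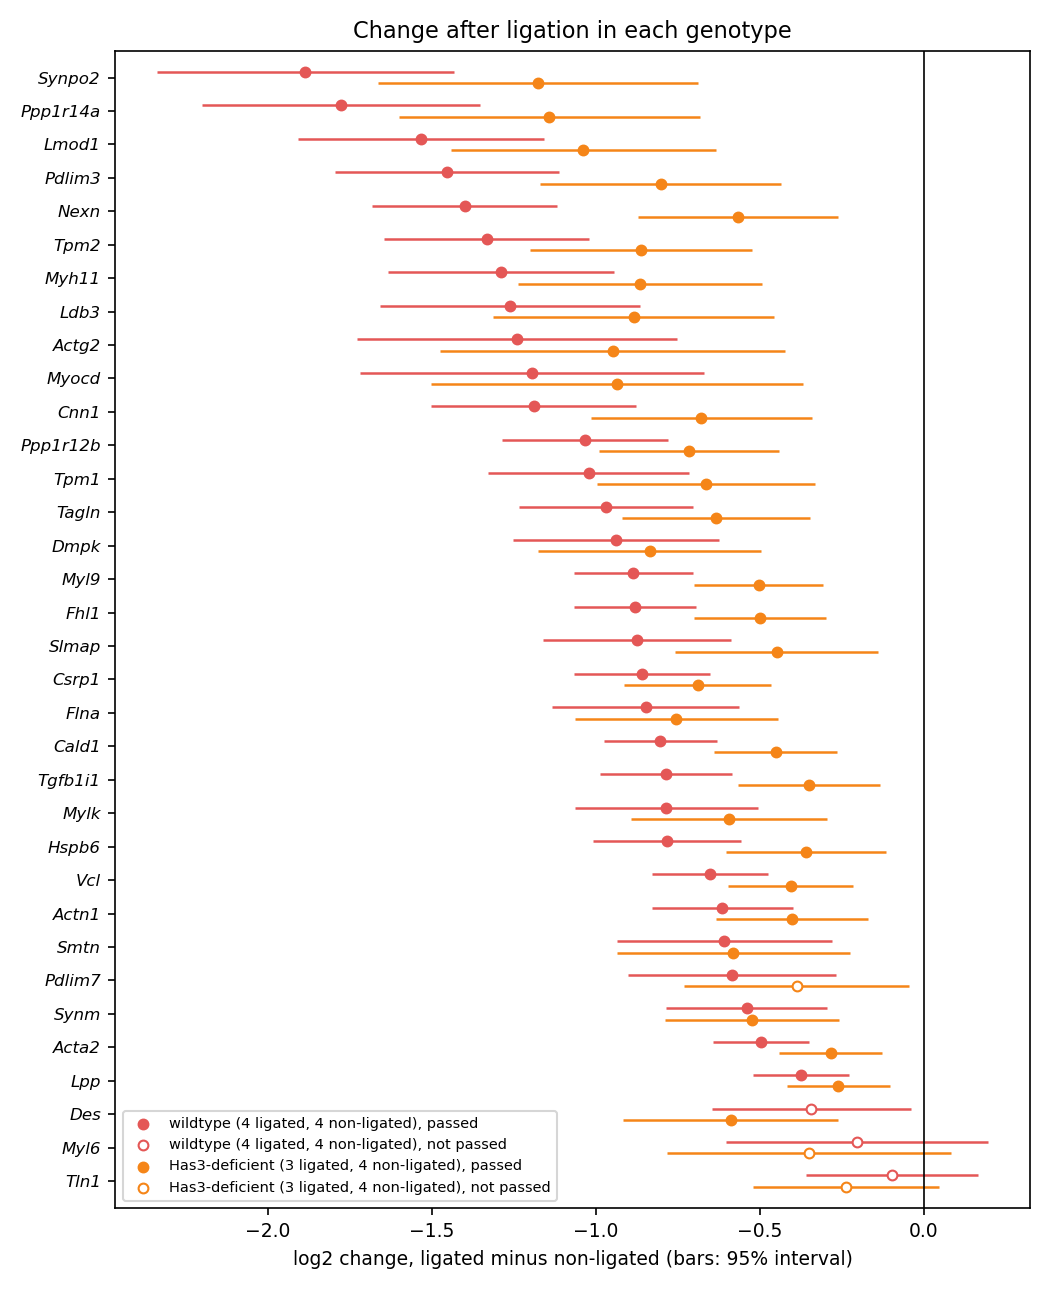
Log2 change after ligation for each of the 34 members (ligated minus non-ligated, horizontal axis) in wildtype (red) and Has3-deficient (orange) arteries, with bars for the 95% interval of the model, filled points where the gene passed and open points where it did not. All points lie left of 0, from -1.89 to -0.10 in wildtype and from -1.18 to -0.24 in Has3-deficient arteries.

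In Has3-deficient arteries 31 of the 34 members fell as well, where 8.08% of all genes were called lower, and none rose (10.2%). Pdlim7, Myl6 and Tln1 did not pass. The median change was -0.59 (all genes, -0.03), and 3 members, Synpo2, Ppp1r14a and Lmod1, fell by 1 log2 unit or more, as did 0.947% of all genes. The count of 31 rested in part on 1 array: without Has3-deficient ligated array 3, the lowest of its group in 26 members, 19 members passed and the median was -0.55. The 12 that no longer passed, with adjusted p from 0.0503 to 0.225, were Acta2, Actg2, Cnn1, Tpm1, Smtn, Hspb6, Nexn, Actn1, Slmap, Tgfb1i1, Lpp and Myocd, and each of them was still below 0. Smtn, Hspb6, Actn1, Slmap, Tgfb1i1, Lpp and Myocd also lost the call, and Des did, when some other array of these groups was left out. Without Has3-deficient non-ligated array 3, 32 passed and the median was -0.72. Most of the 31 calls were lost in a fit with a block for the replicate number. That fit cannot test these calls. Since the numbers 5 and 6 occur on no other array, it leaves the Has3-deficient ligated group to array 3 alone.

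Both ligation comparisons can be set side by side, since their mean changes share no array. Their calls are not separate, because the model takes each gene's variance from the arrays of all groups. Leaving out Has3-deficient non-ligated array 3 moved the number of all genes that passed after wildtype ligation from 6173 to 6627. In 30 of 34 members the gene passed as lower in both genotypes, against 6.53% of all genes. In 30 members all 7 ligated arrays lay below all 8 non-ligated arrays, against 6.92% of all genes; the 4 others were Myocd, Des, Tln1 and Myl6. In Myocd the exception was a wildtype ligated array at 0.00 and a Has3-deficient non-ligated array at -0.0038.

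**Figure D3:**
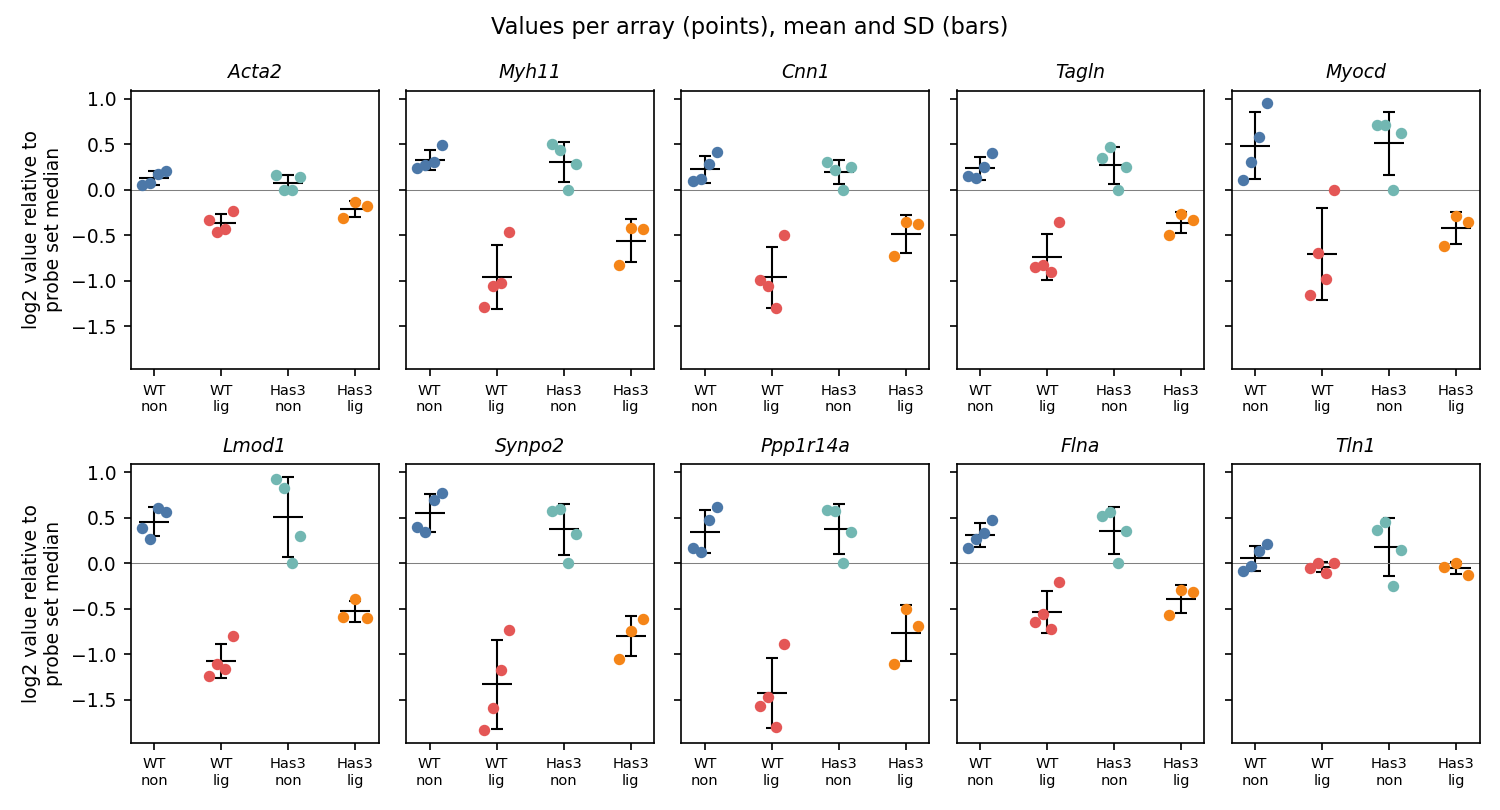
Values per array (points) with mean and SD (bars) for 10 members in the 4 groups (WT, wildtype; non, non-ligated; lig, ligated), as log2 values relative to the median of the probe set. The ligated groups lie below the non-ligated ones in both genotypes for the first 9 genes shown, apart from 1 wildtype ligated array of Myocd level with a Has3-deficient non-ligated one, and the groups of Tln1 overlap.

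Other cell types moved with ligation at the same time. Of 15 macrophage genes 13 rose in each genotype, and the mean of that list ran from -1.02 to -0.10 in the 8 non-ligated arrays and from 1.59 to 1.83 in the 7 ligated ones. Of 12 neutrophil genes 9 rose in each genotype (list means -0.82 to -0.11 and 1.36 to 2.19), and all 14 measured genes of mitosis rose in both. Of 12 endothelial genes 5 fell and 3 rose in wildtype arteries, and 3 fell and 3 rose in Has3-deficient ones. Of 11 genes of adventitial fibroblasts 6 fell and 1 rose in wildtype arteries, and 3 fell and 4 rose in Has3-deficient ones. Lists of cells around the wall also had negative median changes. Of 12 fat genes 4 passed as lower in wildtype and 1 in Has3-deficient arteries (medians -1.21 and -0.36), and of 12 genes of neurons and chromaffin cells none passed in either genotype (medians -0.42 and -1.43). Since the values are centred, no marker can be said to be at 0, and the part of these cells in the contractile fall was not tested. As a list, genes of skeletal and cardiac muscle did not fall, with median changes of 0.03 in wildtype and -0.07 in Has3-deficient arteries. In wildtype arteries 2 of 25 passed as lower, Casq1 (-1.40) and Actc1 (-0.90), where 14.6% of all genes did. In Has3-deficient arteries 1 passed as lower, where 8.08% of all genes did, and 1 as higher. Whether the other genes of this list are expressed in these arteries cannot be judged from centred values.

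Further genes of smooth muscle contraction and its control, outside the 34, fell less uniformly. Of 35 measured of 39 listed, 22 passed as lower and 3 as higher in wildtype arteries (median -0.72), and 19 and 2 in Has3-deficient ones (median -0.47). The deepest passing falls were Dmd, dystrophin, which braces the muscle membrane (-1.60 and -1.01), Pgm5, a structural protein of adherens junctions (-1.30 and -0.95), Prkg1, the cGMP-dependent kinase of relaxation (-1.28 and -0.88) and Jph2, junctophilin, which couples membrane and calcium store (-1.25 and -0.98). In Dmd the nearest wildtype arrays of the ligated and non-ligated groups were -0.62 and 0.50.

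The 3 that rose in wildtype arteries were Fhl2, a LIM protein, Mrtfa, a coactivator of serum response factor that answers to actin, and Palld, palladin, an actin scaffold. Fhl2 rose by 0.62 ± 0.14 there, and the 0.43 ± 0.15 of Has3-deficient arteries did not pass (adjusted p = 0.0638). Mrtfa rose by 0.49 ± 0.11 and 0.50 ± 0.12, and Palld by 0.48 ± 0.10 and 0.52 ± 0.11. Serum response factor and its coactivators thus did not move as one: Myocd fell and Mrtfa rose. Srf, serum response factor itself, at -0.20 ± 0.15 and -0.13 ± 0.16, and Mrtfb, at 0.02 ± 0.09 and -0.04 ± 0.10, did not pass. Klf4, a repressor of the contractile genes, changed by -0.21 ± 0.17 and -0.04 ± 0.19 and did not pass.

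Genes of the non-muscle actin cytoskeleton went both ways. Of 34 measured genes of that list 17 rose, 7 fell and 10 did not pass in wildtype arteries, where 13.2% of all genes rose. In Has3-deficient arteries 15 rose, 3 fell and 16 did not pass (10.2% of all genes rose). The median changes were 0.28 and 0.24. The largest rises were Lcp1, an actin bundler of leukocytes (2.71 and 2.82), Ezr, ezrin, which links actin to the membrane (2.02 and 1.70), Fscn1, fascin (1.75 and 1.5) and Coro1a, a leukocyte coronin (1.70 and 1.46). Lcp1 and Coro1a are textbook leukocyte genes, and the macrophage list rose in the same arrays. Whether the rises on this list came from leukocytes or from cells of the wall was not tested. Some members of the list instead moved as the contractile genes did: Myh10, a non-muscle myosin heavy chain, fell by 1.11 log2 units in wildtype (-1.11 ± 0.14), Pls3, plastin 3, changed by -0.86 ± 0.08, Flnc, filamin C, by -0.60 ± 0.19 and Zyx, zyxin, by -0.59 ± 0.13.

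Muscle genes were also set against their non-muscle relatives within each array, which removes a factor that acts alike on both genes of a pair. A change in the mix of cells need not act alike on both, so it is not removed, and its part was not tested. Of 8 pairs, 6 shifted toward the non-muscle relative with no overlap between ligated and non-ligated arrays, in each genotype. Each of the 6 gave p = 0.0286 in the two-sided exact permutation test, the smallest these designs can give. The value was 0.0381 after adjustment over the 8 pairs. In these 6 pairs the muscle gene alone did not overlap either, so the tests partly repeat its fall. The largest shift was Myh11 minus Myh9, the heavy chain of non-muscle myosin, with group means of 0.65 ± 0.06 (SD, n = 4) and -1.51 ± 0.35 (SD, n = 4) in wildtype arteries, a shift of -2.16. In Has3-deficient arteries that shift was -1.47. Tpm2 minus Tpm4 shifted by -1.85 and -1.31, and Tagln minus Tagln2 by -1.23 and -0.90.

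Acta2 minus Actb, the non-muscle beta actin, shifted by -0.85 and -0.52, Cnn1 minus Cnn2 by -0.85 and -0.68, and Myl9 minus Myl12a by -0.84 and -0.53. In 4 of these 6 pairs the relative itself passed as higher in wildtype arteries (Myh9 0.87, Tpm4 0.52, Actb 0.35 and Tagln2 0.26), while Cnn2 passed as lower (-0.34) and Myl12a (-0.05) did not pass. The 2 remaining pairs did not separate. Myh11 minus Myh10 shifted by -0.18 in wildtype arteries (exact permutation p = 0.343) and by -0.04 in Has3-deficient ones (p = 0.571). Actn1 minus Actn4, both alpha-actinins found in many cell types, shifted by -0.22 (exact permutation p = 0.0571, adjusted 0.0653) and -0.19 (p = 0.114).

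**Figure D4:**
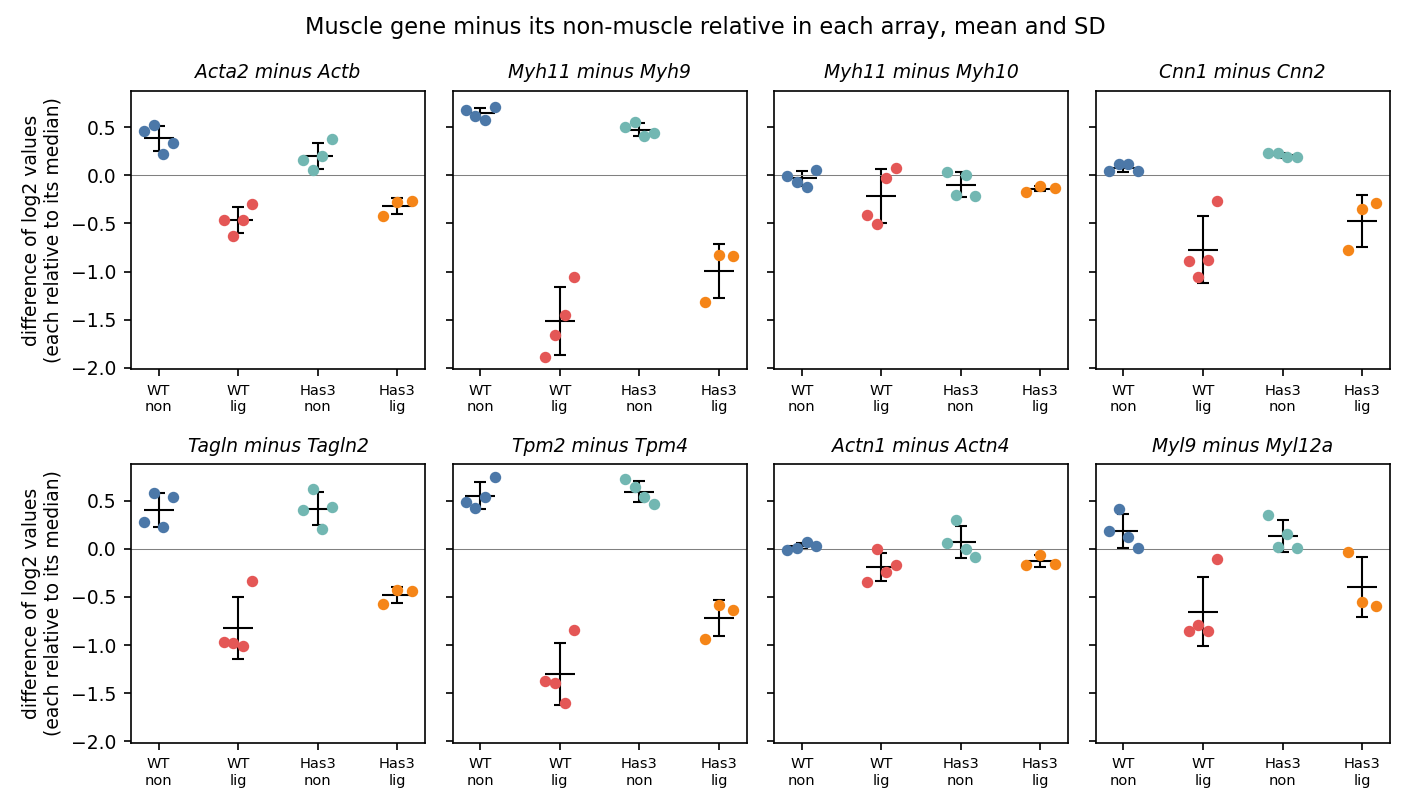
Difference between the log2 values of a muscle gene and its non-muscle relative in each array (points), each gene relative to its own median, with mean and SD (bars) for the 4 groups (WT, wildtype; non, non-ligated; lig, ligated). In 6 of the 8 pairs the ligated arrays lie below the non-ligated ones in both genotypes, and Myh11 minus Myh10 and Actn1 minus Actn4 overlap.

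After ligation the contractile genes tended to be higher in Has3-deficient than in wildtype arteries, but no member passed. The comparison asks whether loss of Has3 alters the state of the ligated wall. Of the 34 members 32 had a positive difference and 0 passed, as did 0% of all 22180 genes in limma. At an unadjusted p under 0.05 there were 13 members and 910 of all genes. The median difference was 0.27 log2 units (all genes, -0.0067). It depended on the scaling: after quantile normalization of the arrays it was 0.12, and Flna was at -0.00038.

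The largest differences were Ppp1r14a at 0.66 ± 0.21 (95% interval 0.21 to 1.12), Lmod1 at 0.55 ± 0.19 (0.14 to 0.95), Synpo2 at 0.53 ± 0.23 and Cnn1 at 0.48 ± 0.16, each with an adjusted p that rounds to 1.0. Differences of Myh11 (0.40 ± 0.17), Tagln (0.37 ± 0.13), Myocd (0.29 ± 0.26) and Acta2 (0.16 ± 0.07) were smaller. Des (-0.17 ± 0.15) and Tln1 (-0.01 ± 0.13) were the only members below 0. The small number of arrays limits the precision of these differences.

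The order of single arrays shows where the groups met. In 25 members wildtype ligated arrays 1 to 3 all lay below all 3 Has3-deficient ligated arrays. That count leaves out wildtype ligated array 4, a choice made after the values were seen. Wildtype ligated array 4 was the highest of its group in 32 members and lay above the lowest Has3-deficient ligated array in 28. No share of all genes was taken for these counts, so they cannot show a separation of the genotypes particular to the members. All 4 wildtype arrays lay below all 3 Has3-deficient ones in 5 members (Lmod1, Dmpk, Mylk, Pdlim7 and Tgfb1i1), where 3.55% of all genes showed such a gap. Without wildtype ligated array 4 the median difference was 0.33 and still no member passed.

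Markers of other cells also varied between the ligated arrays. Over 12 genes of white and brown fat, wildtype ligated arrays 1 to 4 had means of -1.29, -1.13, -0.44 and 0.07, and Has3-deficient ligated arrays 3, 5 and 6 of -0.35, 0.33 and 0.30. The fat list and the members put array 4 highest among the wildtype ligated arrays and array 3 lowest among the Has3-deficient ones, but not the arrays between: wildtype ligated array 3 was above array 2 in fat genes and had a lower median over the members (-0.70 against -0.63). Without ligation, wildtype array 1 had the highest fat mean of its group (1.63) and the lowest median over the members (0.18). Inflammatory and mitotic genes ran the opposite way at the same 2 ligated arrays. Wildtype ligated array 4 was the lowest of its group in the macrophage (1.61 against 1.76 to 1.83), neutrophil (1.36 against 1.74 to 2.19) and mitosis lists (1.07 against 1.28 to 1.44), and Has3-deficient ligated array 3 was the highest of its group in all 3 (1.75, 2.04 and 1.30). In ligated arteries no gene of these 4 lists passed between the genotypes, but neither did any other gene. The median differences there were 0.56 for the fat list, -0.06 for macrophages, 0.01 for neutrophils and -0.10 for mitosis. The part of these lists in the contractile difference was not tested.

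**Figure D5:**
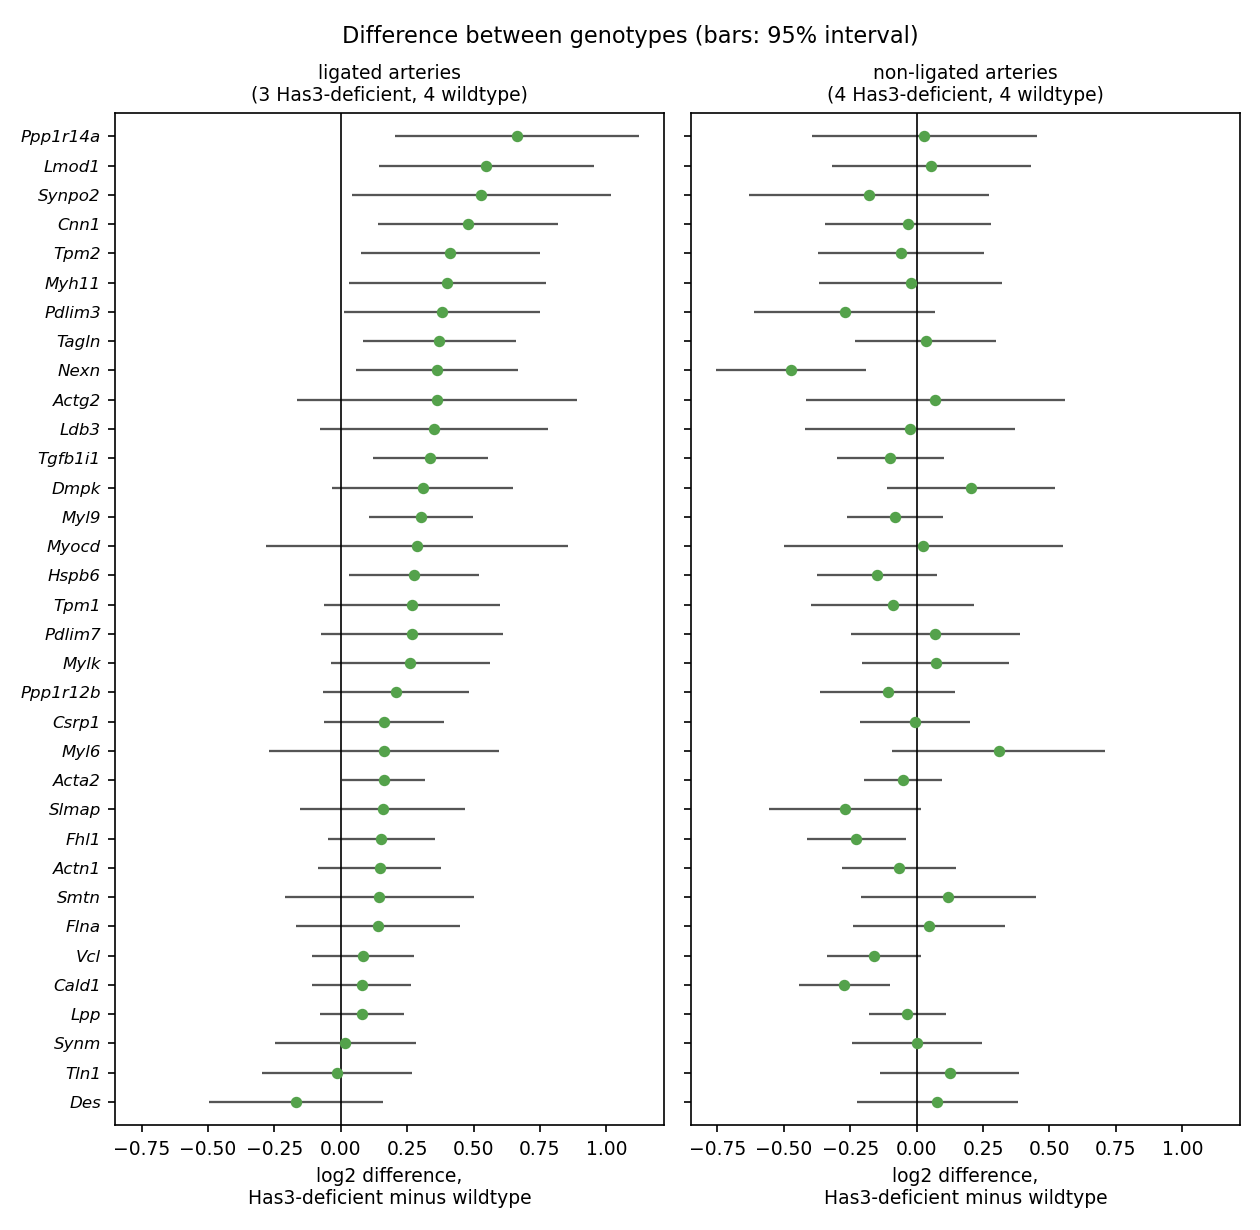
Log2 difference between genotypes (Has3-deficient minus wildtype, horizontal axis) for each member in ligated (left) and non-ligated (right) arteries, with bars for the 95% interval of the model. In ligated arteries 32 of 34 points lie right of 0, up to 0.66 for Ppp1r14a, and in non-ligated arteries the points scatter to both sides, from -0.47 for Nexn to 0.31 for Myl6.

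In non-ligated arteries the members' differences between genotypes went both ways. Of the 34 members 20 were below and 14 above 0 in Has3-deficient arteries, with a median of -0.03 (all genes, 0.01). The sign of that median turned with single arrays: it was 0.05 without Has3-deficient non-ligated array 3, 0.03 without wildtype non-ligated array 4, and as low as -0.09 without wildtype non-ligated array 1. None passed in limma, where 0.0857% of all genes did; 3 members had an unadjusted p under 0.05, and 2979 of all genes. Nexn had the largest difference. It read 0.71, 0.50, 0.86 and 0.70 in wildtype and 0.31, 0.00, 0.04 and 0.53 in Has3-deficient non-ligated arrays, a difference of -0.47 ± 0.13 (adjusted p = 0.139). The groups overlapped through array 4 of the Has3-deficient group, which was also high in skeletal and cardiac muscle genes, with a list mean of 0.55 against -0.16 to 0.09 in the other arrays. Without that array the Nexn difference was -0.57 and passed in limma (adjusted p = 0.0487). In that fit 280 of all genes passed, against 19 with every array. Cald1 was the 1 member whose arrays did not overlap, with 0.38, 0.45, 0.54 and 0.52 in wildtype and 0.23, 0.31, 0.00 and 0.24 in Has3-deficient arrays (-0.27, not passed), where 3.82% of all genes showed such a gap.

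The fall after ligation was smaller in Has3-deficient arteries for 31 of the 34 members. No share of all genes was taken for this count, so it cannot show a trait particular to the members. Falls of 1 log2 unit or more were also rarer over all genes in Has3-deficient arteries, at 0.947% against 1.76% in wildtype. The difference of the responses was tested directly as an interaction. No member passed, nor did any of the 22180 genes (0% in limma); 12 members and 1802 of all genes had an unadjusted p under 0.05. The median interaction was 0.33 log2 units (all genes, -0.016), positive meaning a smaller fall with Has3 deficiency. It was 0.19 after quantile normalization. Leaving out 1 array in turn gave 0.23 (without Has3-deficient non-ligated array 3) to 0.44 (without wildtype ligated array 4), and no member passed in any of these fits.

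Nexn had the largest interaction, 0.83 ± 0.19 (95% interval 0.42 to 1.25, adjusted p = 0.44), made up of a lower start and a higher end in the Has3-deficient arteries. Next were Synpo2 (0.71 ± 0.31), Pdlim3 (0.65 ± 0.23) and Ppp1r14a (0.64 ± 0.29). For the usual markers the interaction was 0.51 ± 0.21 for Cnn1, 0.42 ± 0.24 for Myh11, 0.34 ± 0.18 for Tagln and 0.21 ± 0.10 for Acta2. Des (-0.25), Myl6 (-0.15) and Tln1 (-0.14), which are also 3 of the 4 members whose ligated and non-ligated arrays overlapped, had a negative sign. This comparison uses the same arrays as the others, so it is not a separate line of evidence.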

How the data were processed

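Total RNA of 15 carotid arteries was hybridised to Affymetrix arrays, 1 array per sample. In the authors' deposited table each of 33793 probe sets has a log2 value per array, centred on its own median over the 15 arrays. Base 2 was inferred from the spacing and range of the numbers. For normalization and software, nothing is given in the sources used here. Symbols came from the platform annotation, updated to the RefSeq genes of assembly GRCm38.p6: 23521 probe sets carried 1 symbol, 1814 carried several and 8458 were unlisted. A gene is the mean of its single-symbol probe sets.

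A linear model of the 4 group means was fitted by limma 3.58.1 (R 4.3.3). Variances were moderated by empirical Bayes, with 11 degrees of freedom from the residuals and 2.69 from the prior, and p-values were adjusted by Benjamini-Hochberg over 22180 genes. The code was tested on simulated data. No filter on low values was used. Differences within a pair of genes were tested by exact two-sided permutation over arrays. Members and lists were chosen with earlier results of these data known. Members given in full are those with the largest and the smallest change in each role after wildtype ligation, plus Acta2, Myh11, Cnn1, Tagln and Myocd; from the other lists, up to 4 passing genes in each direction. Nexn, Cald1 and the remaining values were singled out after they were seen. Alternatives were quantile normalization, a common array median, a replicate block, array weights, a fit of the compared groups alone, a robust prior, the probe set of largest range, and leaving out each array. Leaving out arrays high in neuron or fat genes was added after seeing the data.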

Additional observations from a re-analysis of the deposited data

Results flagged for a closer look

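A single array stood apart from the other 3 of its group in 4 of the 102 combinations of a member with a group of 4 arrays; by chance about 1 in 20 would. The gap to the nearest array, as a share of the group's range, was 0.923 for Myl9, 0.901 for Ppp1r12b and 0.871 for Tagln in the wildtype ligated group, each time with array 4 above the rest. Myl9, the regulatory light chain, read -0.78, -0.75 and -0.78 in wildtype ligated arrays 1 to 3 and -0.40 in array 4. Ppp1r12b, the phosphatase subunit, read -0.77, -0.76, -0.73 and -0.36, and Tagln, transgelin, -0.85, -0.83, -0.90 and -0.36. The share was 0.880 for Myocd in the Has3-deficient non-ligated group, where array 3 lay below the rest. Myocd read 0.72, 0.71, -0.0038 and 0.63 there.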

How the results depend on the processing

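In wildtype arteries 30 to 32 members passed as lower after ligation under every alternative run, and leaving out each array gave 31 to 31. In Has3-deficient arteries leaving out 1 array gave 19 to 32, the lowest without ligated array 3, and the other alternatives without a block gave 25 to 33. With the replicate block most of these calls were lost. That fit leaves the Has3-deficient ligated group to array 3 alone, because only this array shares its number with other arrays. Its count of members is therefore not given. Whether equal numbers mark paired samples was not settled. After the group means were taken out, same-numbered arrays correlated from -0.40 to 0.16 over 15 pairs. The 4 pairs of wildtype ligated with wildtype non-ligated arrays ran from 0.03 to 0.16. The block left the wildtype count at 31 and the members' count between genotypes without ligation at 0. Between genotypes after ligation, and for the interaction, the block fit again rests on Has3-deficient ligated array 3 alone. In limma 1793 genes of all were lower after ligation in Has3-deficient arteries, 1056 with only the groups compared, and 2262 were higher. Without Has3-deficient ligated arrays 3 or 5 the lower were 996 and 1210. Between genotypes without ligation 19 of all genes passed, 43 after quantile normalization, 9 with array weights, 7 with the probe set of largest range, 0 with the block or only the groups compared, and 0 to 280 with 1 array left out. The members' count there was 0 to 1 with 1 array left out. Between genotypes in ligated arteries Flna was -0.00038 after quantile normalization, where the other values were above 0. With 1 mismatch, CArG boxes stood in 34.5% of members with a window. Signal over background cannot be judged, since centring removed the levels.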

Other observations

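Adventitial fibroblast genes, which mark the outer coat of the artery, also had positive differences between the ligation responses of the genotypes. For all 11 measured genes the interaction was above 0, from 0.24 to 0.50 with a median of 0.35, and none passed. No share of all genes was taken for this sign. The median interactions of the other lists ran from -0.98 (neurons and chromaffin cells) to 0.71 (fat). Without ligation all 11 fibroblast genes were lower in Has3-deficient arteries (-0.45 to -0.03, median -0.26, none passed), and after ligation their median difference was 0.12, whereas the contractile members had medians of -0.03 and 0.27; this contrast between the lists was not tested.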
